A study of Mus musculus with 6 samples.

Results

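Tsc22d3 and 8 further genes that glucocorticoids are known to induce, namely Fkbp5, Sgk1, Zbtb16, Mt1, Mt2, Dusp1, Errfi1 and Cebpd, were followed in mouse livers that had lost Lkb1 and in control livers. These 9 genes, of the 19938 measured, were chosen by name with earlier results of the same mutant and control comparison in view, and each was read from the single probe set that the array annotation assigns to it. Tsc22d3 also stands in a list of changed genes that the study's text ties to such arrays, although the legend of that list names the embryonic deletion. Its rise here is therefore a description of how it was picked and not independent evidence, and no p is given for any of the 9.

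The series holds 6 arrays of total liver RNA, 1 per mouse, from 3 Lkb1KOlivad mice, numbered B253, B304 and B305, and from 3 control mice, which are B256, B267 and B302. All are labelled female. Lkb1, the gene Stk11, encodes a kinase that activates AMPK and related kinases, and the comparison asks what the adult liver expresses once hepatocytes lack it. The mutants carried Lkb1 fl/fl and TTR-CreTam, a tamoxifen-inducible Cre recombinase driven by the transthyretin promoter, which is active in hepatocytes. Controls were Cre-negative littermates with the same Lkb1 fl/fl alleles on the same FVB/N background, so the wild-type label of these mice refers to intact Lkb1 and not to an unmodified locus. Per the study's methods, mice received 2 doses of 1.5 mg tamoxifen at 8 to 12 weeks of age. Most of its work is said to have used males 15 days later, whereas these arrays are labelled female. That delay is therefore not stated for these mice in particular. The study describes its arrays of these mutants as made from fasted livers, with 18 h as its usual fast. The labels themselves give neither feeding state nor time of day, and both are known to act on circulating glucocorticoids.

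Glucocorticoids (corticosterone in mice) enter cells and bind the glucocorticoid receptor, Nr3c1, which is held by heat shock proteins and co-chaperones until the hormone arrives. The receptor then enters the nucleus and binds paired hexamers in DNA, and genes next to such sites are switched on within hours. In the liver this program supports the response to fasting and stress, and its targets include Fkbp5, which dampens the receptor, and Tsc22d3, which carries out part of the hormone's effect.

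RefSeq promoter windows of the GRCm38.p6 build, reaching from 250 bases before a transcript start to 50 after it, were searched on both strands for known response sites, and 7 of the 9 genes were matched to 15 windows. Zbtb16 and Cebpd had no entry. The receptor's hexamer TGTTCT occurred in 19.0% of all 32851 windows, and the pair AGAACA and TGTTCT with 3 bases between them occurred in 0.00913%. That pair was found in 1 window of the 9 genes, that of an Sgk1 transcript on the plus strand, with its first base at position -189. The Tsc22d3 window with the most upstream start, on the minus strand, held 1 single hexamer at position -185, and its other windows held none. A looser pair, GNACA and TGTNC with 3 bases between them, was in 0.475% of windows and in those of this Sgk1 transcript, where it overlaps the pair above, and of Mt1. The core that metal-responsive factor binds, TGCGCNC or TGCACNC, was in 25.7% of windows, with 3 matches for Mt1, 4 for Mt2 and 1 each for Dusp1 and another Sgk1 transcript. The cAMP response element, TGACG followed by TCA, in 1.79% of windows, occurred in those of Dusp1 and Errfi1, and the Fkbp5 window held none of these sites. A match describes the letters only, and many receptor sites lie far from the start of a gene. The 250 bases before the start are shown for the receptor pair of Sgk1, at chr10:21993640-21993889, for the single hexamer of Tsc22d3, at chrX:140600523-140600772, and for the metal cores of Mt2, at chr8:94172368-94172617. Capitals mark the hexamers, with the bases between a pair, in Sgk1 and Tsc22d3, and the metal cores in Mt2, where the core after the start is not shown.
Sgk1: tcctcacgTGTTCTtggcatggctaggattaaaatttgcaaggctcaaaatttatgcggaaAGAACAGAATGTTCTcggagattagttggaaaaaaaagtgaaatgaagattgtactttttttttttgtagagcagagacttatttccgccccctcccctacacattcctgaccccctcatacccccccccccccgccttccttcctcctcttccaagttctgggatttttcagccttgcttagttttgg
Tsc22d3: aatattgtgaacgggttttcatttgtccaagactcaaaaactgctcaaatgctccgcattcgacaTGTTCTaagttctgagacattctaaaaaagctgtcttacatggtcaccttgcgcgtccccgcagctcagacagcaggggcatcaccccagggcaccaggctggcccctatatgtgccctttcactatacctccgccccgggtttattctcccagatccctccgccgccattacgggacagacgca
Mt2: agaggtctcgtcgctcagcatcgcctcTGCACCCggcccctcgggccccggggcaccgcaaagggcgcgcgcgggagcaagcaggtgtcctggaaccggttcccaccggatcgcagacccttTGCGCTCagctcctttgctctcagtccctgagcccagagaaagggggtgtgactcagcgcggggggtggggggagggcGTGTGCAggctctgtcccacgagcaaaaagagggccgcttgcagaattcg

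Values are log2 RMA signals, the background-corrected, between-array normalized summary of each probe set, and a difference of 1 is a 2-fold change. Over all genes, the deleted Stk11 lay between 7.96 and 8.24 in controls and between 6.42 and 6.52 in mutants, a log2 difference of -1.64 (SE 0.12, limma, adjusted p = 0.00705), and it was the only gene called at an adjusted p under 0.05 (0.00502% of genes), a call that was lost when any mouse other than B302 was left out, while the difference stayed between -1.71 and -1.57. This transcript came from whole liver, in which other cells keep Lkb1. In such bulk RNA, fewer cells of a type and less RNA per cell cannot be told apart. Albumin, Alb, read 12.42 to 12.86 on the 6 arrays, whose values ran from 1.59 to 13.62. Root mean square differences between arrays over all genes ran from 0.262 to 0.362, and control B302 lay farthest from the rest, at 0.306 to 0.362. The number of arrays, 3 a group, limits the precision of every value below.

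Among the genes that regulate transcription, Tsc22d3 was higher in every mutant than in every control. Its product, GILZ, is a leucine zipper protein that carries part of the anti-inflammatory action of glucocorticoids. Tsc22d3 (probe set 10606989, chrX:140539528-140600522) read 7.15 in B253, 7.46 in B304 and 6.91 in B305, against 6.61 in B256, 6.59 in B267 and 6.39 in B302. The lowest mutant stood 0.30 above the highest control. Group means were 7.18 ± 0.27 (SD, n = 3) in Lkb1KOlivad and 6.53 ± 0.12 (SD, n = 3) in control livers. The log2 difference was 0.64 (SE 0.16, 95% interval 0.288 to 0.999), or 1.56-fold, and 51 genes had a larger positive difference. Over 18 alternatives it ran from 0.50 without mutant B304 to 0.80 among mice numbered in the 300s. With every mutant above every control, leaving out mice could not turn its sign, so the kept sign is no further support.

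Zbtb16 (probe set 10593225, chr9:48651797-48836225) encodes PLZF, a zinc finger repressor whose transcript rises sharply with glucocorticoids in many cells. Its signal was 8.43, 8.57 and 7.98 in mutants B253, B304 and B305. The same gene read 8.41 in control B256, 7.39 in B267 and 7.85 in B302. Control B256 reached the level of the higher mutants, so the groups overlapped. The means were 8.32 ± 0.31 and 7.88 ± 0.51 (SD, n = 3 each), a log2 difference of 0.44 with an interval of -0.14 to 1.03 that includes 0. The size depended on the controls: it was 0.71 without B256 and 0.19 without B267.

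Cebpd (probe set 10433885, chr16:15887286-15889545), the gene of a C/EBP transcription factor of the acute phase response, ran the other way by a small margin. Mutants B253, B304 and B305 read 5.92, 5.97 and 6.25, and controls B256, B267 and B302 read 6.23, 6.41 and 6.01. The groups overlapped, and the log2 difference of -0.17 (interval -0.51 to 0.16) was 0.10 within the mice numbered in the 300s and -0.41 within those in the 200s. Acute phase genes, which C/EBP factors are known to switch on, were measured beside it. Of 10 such genes, limma gave 3 a higher and none a lower signal at an unadjusted p under 0.05, where 1.52% of all genes were higher and 1.51% lower, and none passed after adjustment. They were Saa2, Saa1 and Saa3, serum amyloid A genes, with log2 differences of 2.24, 1.36 and 0.67. The highest Saa1 and Saa2 signals, 11.76 and 11.00, were those of mutant B253, which had the lowest Cebpd.

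**Figure D1:**
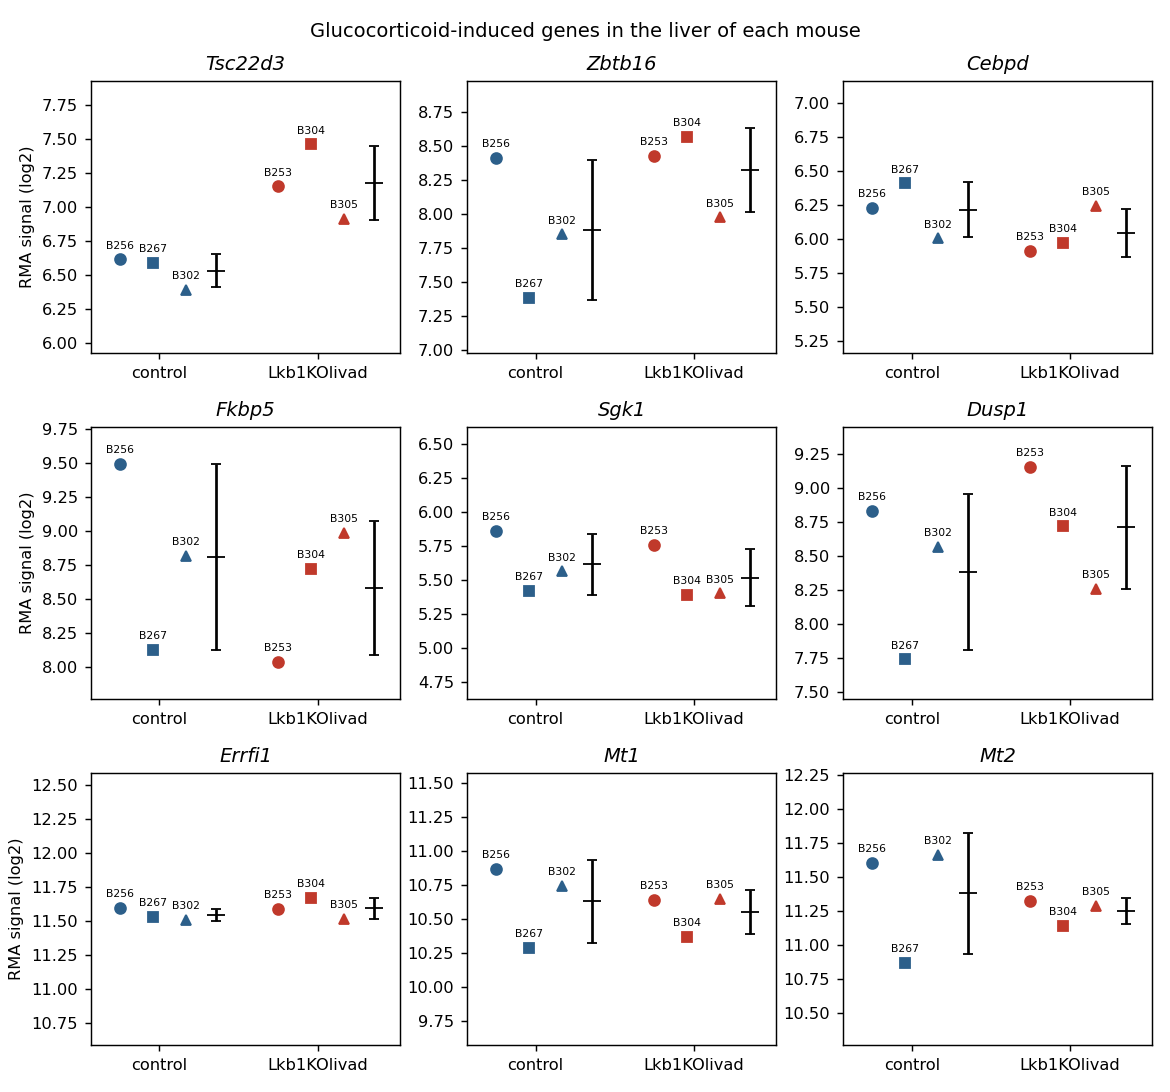
Log2 RMA signal (vertical axis, 2 log2 units in every panel) of the 9 genes in each control mouse (blue) and each Lkb1KOlivad mouse (red), with the group mean and SD in black (n = 3). Tsc22d3 alone has all 3 mutants above all 3 controls, while Fkbp5 and Dusp1 spread widely inside both groups and Errfi1 hardly varies.

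Kinase signalling genes showed no common direction. Sgk1 (probe set 10362073, chr10:21882184-21999903), a kinase that regulates ion transport and cell survival, has the full receptor pair before the transcript start shown above. It read 5.76, 5.39 and 5.40 in mutants B253, B304 and B305. Control B256 read 5.86, B267 read 5.42 and B302 read 5.56. The ranges overlapped almost entirely, with a log2 difference of -0.10 (interval -0.46 to 0.26) that turned to 0.03 without control B256. Its signals were low, close above the level of 5.26 under which genes were called dim.

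Dusp1 (probe set 10449284, chr17:26505591-26508472), a phosphatase that switches off MAP kinases, had mutant signals of 9.16 in B253, 8.72 in B304 and 8.26 in B305. Its controls read 8.84 in B256, 7.74 in B267 and 8.57 in B302. Control B267 stood lowest and the other two lay within the mutant range. The log2 difference of 0.33 (interval -0.36 to 1.02) fell to 0.01 without control B267 and to 0.11 without mutant B253, and it was 0.87 among mice of the 200s and -0.08 among those of the 300s. Dusp1 is also induced within minutes by growth factors and stress, and 11 immediate early genes had a median log2 difference of 0.09, from -0.11 for Fosb to 0.61 for Btg2. Mutant B253 held the highest mutant signal in 10 of 11 immediate early genes, as it did in 6617 of all 19938 genes. It averaged 0.56 above the control mean over the 11, against 0.17 for B304 and -0.25 for B305. Fosb, at 4.21 to 4.53, and other genes of this list had group means below the level of 5.26 under which genes were called dim. None of the 11 passed an unadjusted p under 0.05 in limma. The order of the mutants for Dusp1 followed the same sequence, and the part of this in the difference was not tested.

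Errfi1 (probe set 10510574, chr4:150853796-150868889), also called Mig6, an inhibitor of the EGF receptor, hardly varied. Mutants B253, B304 and B305 read 11.59, 11.67 and 11.52, and controls B256, B267 and B302 read 11.59, 11.53 and 11.51. The log2 difference was 0.05 (SE 0.11, interval -0.20 to 0.29), an interval of 0.871-fold to 1.23-fold.

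Fkbp5 (probe set 10449452, chr17:28398753-28486149) encodes a co-chaperone that lowers the receptor's affinity for hormone and is widely used as a readout of receptor activity. Mutants read 8.04 in B253, 8.72 in B304 and 8.99 in B305, and controls read 9.49 in B256, 8.13 in B267 and 8.82 in B302. Both groups held low and high mice, with means of 8.58 ± 0.49 and 8.81 ± 0.68 (SD, n = 3 each). The log2 difference of -0.23 had an interval of -1.02 to 0.56, the widest of the 9 genes. Its direction rested on single mice, since it was 0.04 without mutant B253, 0.11 without control B256, 0.38 without both and -0.57 without control B267. Tsc22d3 and Fkbp5 thus ordered the mice differently: B253 was the lowest of the 6 for Fkbp5 and above all controls for Tsc22d3.

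The metallothioneins Mt1 (probe set 10574027, chr8:94178883-94180327) and Mt2 (probe set 10574023, chr8:94172618-94173567), neighbours on chromosome 8 that bind zinc and copper and respond to metals as well as to glucocorticoids, overlapped between groups. Mt1 read 10.64 in mutant B253, 10.37 in B304 and 10.65 in B305, with controls B256, B267 and B302 at 10.87, 10.29 and 10.74. Mt2 read 11.33, 11.14 and 11.29 in the same mutants and 11.60, 10.87 and 11.66 in the same controls. For both genes control B267 was the lowest mouse of all, and the other controls were the highest. The log2 differences were -0.08 (interval -0.47 to 0.31) for Mt1 and -0.13 (interval -0.60 to 0.34) for Mt2. Without control B267 they were -0.25 and -0.38, while Mt1 turned to 0.04 without control B256 and to 0.01 without mutant B304, and Mt2 to 0.02 without control B302. The genes share sequence, so their probes may read each other's transcripts.

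As a list, the 9 genes had a median log2 difference of -0.08, beside 0.00 over all genes, and 4 of 9 were above 0, where 51.6% of all genes were. The median turned to 0.04 without B253, 0.01 without B304, 0.07 without B256 and 0.02 without B302. Tsc22d3 was the single member with all mutants above all controls, a pattern held by 3.46% of genes, and none had all mutants below, which 3.7% of genes did. Since the members were picked on this contrast, these counts describe the choice. The median of the 8 genes other than Tsc22d3 was -0.09.

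**Figure D2:**
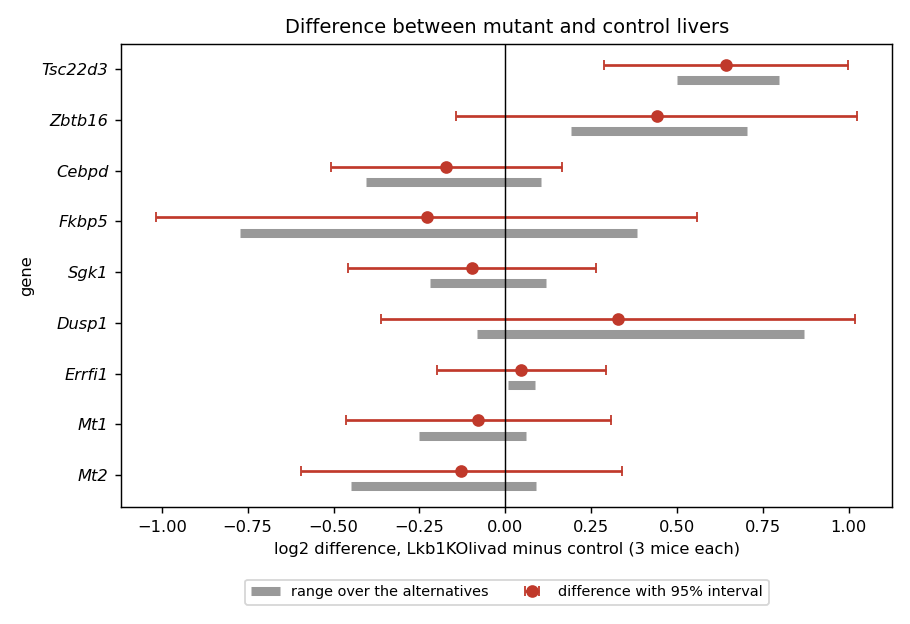
Log2 difference between Lkb1KOlivad and control livers for each gene (points, 95% intervals from limma, 3 mice a group) and the range of the difference over 18 alternative settings and left-out mice (grey bars). The intervals are descriptions and not tests, because the genes were picked with this contrast in view. That of Tsc22d3 runs from 0.288 to 0.999.

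The spread among mice of the same group does not use the difference between groups, and here the 9 genes differed most from each other. Fkbp5 had a pooled within-group SD of 0.60 on the log2 scale, larger than all but 1.09% of genes. Dusp1 followed at 0.51 (1.88% of genes were more variable), Zbtb16 at 0.42 (3.81%), Mt2 at 0.32 (10.3%) and Mt1 at 0.24 (23.9%). These 5 genes lay among the 25% of genes with the largest spread, above an SD of 0.239, and the median over all genes was 0.172. Sgk1 at 0.22 (31.6%), Tsc22d3 at 0.21 (33.3%) and Cebpd at 0.19 (41.8%) lay between that bound and the median. Errfi1 at 0.06 was less variable than 96.1% of genes. With dim genes left out, 33.7% of the remaining genes were more variable than Mt1, which then lay outside that 25%. The shares were 42.9% for Sgk1, 44.6% for Tsc22d3 and 53.5% for Cebpd.

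The control mice alone spanned a 2.58-fold range for Fkbp5, 2.13-fold for Dusp1 and 2.04-fold for Zbtb16. For Tsc22d3 they spanned 1.17-fold, and for Errfi1 1.06-fold. The spread of the metallothioneins came from control B267: without it, 62.2% of genes were more variable than Mt1 and 87.8% more variable than Mt2. Fkbp5, Dusp1 and Zbtb16 were not so dependent, with at most 2.31%, 5.78% and 10.7% of genes above them when each mouse was left out in turn. Tsc22d3 moved more, with 62.6% of genes above it without mutant B304 and 54.6% without mutant B305. Sgk1 ran from 18.7% without control B302 to 43.55% without mutant B253. Cebpd ran from 29.6% without control B256 to 52.1% without mutant B305.

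**Figure D3:**
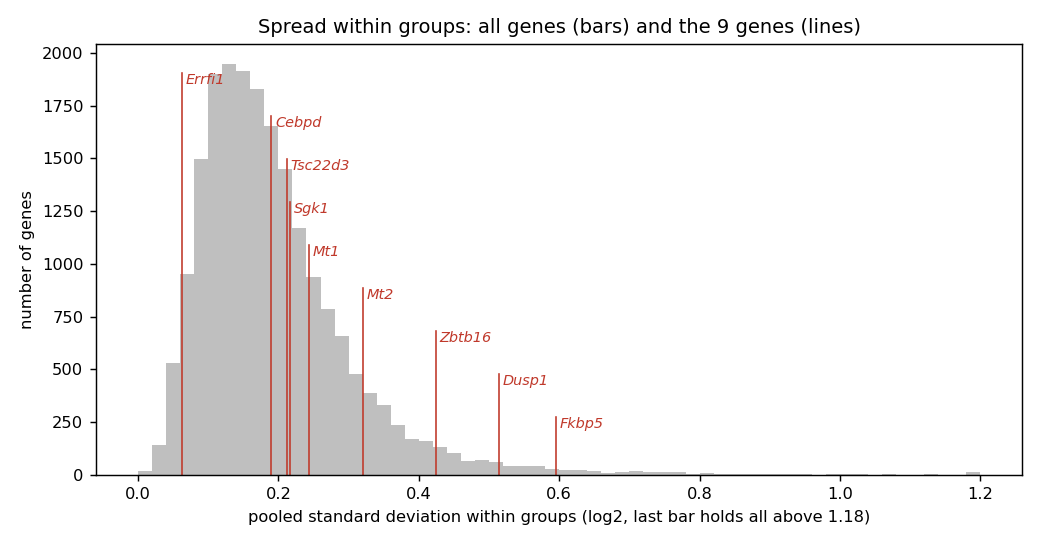
Histogram of the pooled within-group SD (horizontal axis, log2 units; vertical axis, number of genes) over 19938 genes, with a red line at the SD of each of the 9 genes; line heights only separate the names. Fkbp5 (0.60), Dusp1 (0.51) and Zbtb16 (0.42) lie in the right tail and Errfi1 (0.06) at the left edge.

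The controls kept a similar order in most of these genes. B256 was the highest control in 7 of 9, where it was so in 32.8% of all genes, with Cebpd and Mt2 as exceptions. B267 was the lowest control in 6 of 9, against 33.7% of all genes, Tsc22d3, Cebpd and Errfi1 being lowest in B302. This pattern was described after the values had been seen. With quantile normalization on top, the counts were 5 of 9 for B256 and 7 of 9 for B267, and with each array centred on its median they were 7 and 6. Over the 8 genes other than Tsc22d3, B256 averaged 0.30 above the control mean and B267 fell 0.34 below it (-0.34), with B302 at 0.03.

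The mutants averaged 0.05 (B253), 0.01 (B304) and -0.02 (B305) on the same scale, inside the range of the controls. Tsc22d3 in the same mice stood 0.62, 0.93 and 0.38 above its control mean. No common order ran through the mutants: B253 was highest for Sgk1, Dusp1 and Mt2, B304 for Tsc22d3, Zbtb16 and Errfi1, and B305 for Cebpd, Fkbp5 and Mt1. Beside the order of the controls, 10 hepatocyte markers were highest in control B256 in 9 of 10 cases, with list means of 0.22 in B256, -0.06 in B267 and -0.16 in B302 relative to the controls. Their part in the order of the glucocorticoid-induced genes was not tested.

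**Figure D4:**
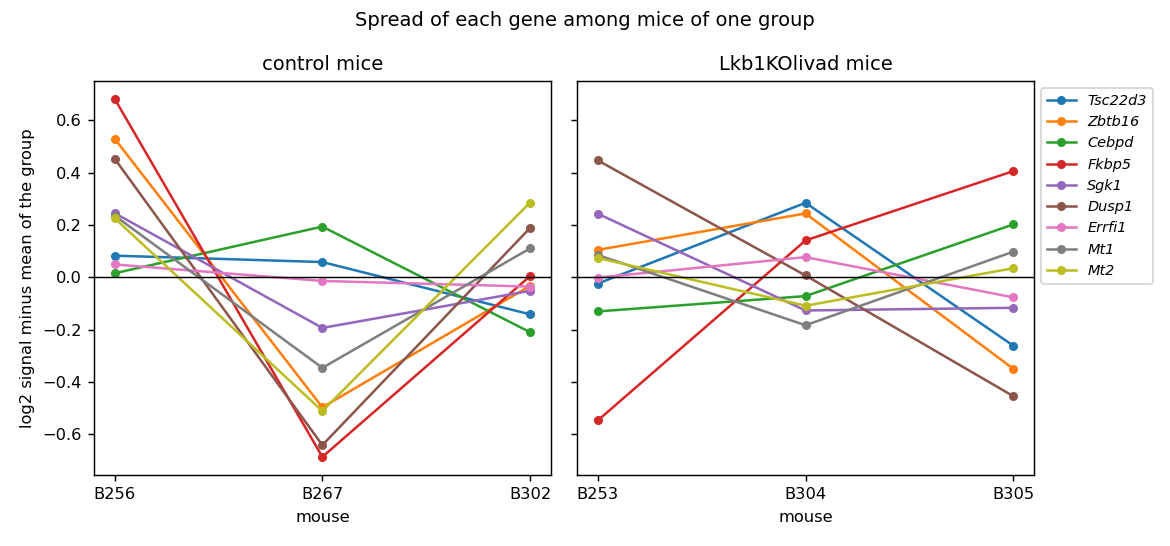
Log2 signal of each of the 9 genes minus the mean of its group (vertical axis) in the 3 control mice (left) and the 3 Lkb1KOlivad mice (right); lines join the values of each gene. Most genes run from high in B256 to low in B267 among controls, from 0.68 to -0.69 for Fkbp5, while the mutants show no shared order.

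Genes that make the hormone effective were then read in the same fit. The glucocorticoid receptor itself, Nr3c1, differed by -0.06 (interval -0.41 to 0.30). Of 8 genes for the receptors, their chaperones and coregulators, none passed an unadjusted p under 0.05 in limma in either direction and none an adjusted p. Their median difference was 0.09. The largest values were 0.38 for Hsp90aa1 and 0.29 for Fkbp4, which both help to fold the receptor, and -0.23 for the mineralocorticoid receptor Nr3c2. Nr3c2 was low, at 4.76 to 5.23 in mutants, and read 5.95 in control B267 against 4.92 and 4.95 in the other controls.

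Supply of the hormone was read from 5 genes, none at an unadjusted p under 0.05 in limma. Hsd11b1, whose enzyme regenerates active corticosterone inside hepatocytes, differed by -0.26 (interval -0.62 to 0.11), and Hsd11b2, which inactivates it, by -0.14. Serpina6, the corticosteroid-binding globulin of plasma, differed by 0.35 but spread widely, and it was 11.15 in control B267 and 9.63 in control B256, opposite to the order those mice had for most of the 9 genes.

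A further 19 genes known to be induced by glucocorticoids had a median difference of 0.04, from -0.54 for Sesn1 to 1.22 for Bcl6, and 10 of 19 were above 0. None passed an adjusted p under 0.05 in limma, and at an unadjusted p under 0.05 2 were higher and 1 lower, beside 1.52% and 1.51% of all genes. The higher genes were Bcl6, a repressor of lipid and immune genes, and G6pc, the glucose-6-phosphatase of the last step of glucose production, at 0.56. The lower was Pik3r1, a regulatory subunit of PI3 kinase, at -0.40. These calls rested on few mice: the count of 3 was 0 without mutant B253 and 1 without mutant B304, and Bcl6 read 6.08 in mutant B305, below the 6.52 of control B267. Per1 and Klf9, which respond to the receptor in most tissues, differed by -0.23 (interval -0.57 to 0.10) and -0.13 (interval -0.43 to 0.17). B256 was the highest control in 13 of 19 of these genes, against 32.8% of all genes, and B267 the lowest in 10 of 19, against 33.7%. Tat is both in this list and among the hepatocyte markers. The order was not particular to such genes: B256 was highest in 5 of 6 sinusoidal endothelium markers and 5 of 7 metal handling genes, but in 2 of 11 immediate early genes. B267 was lowest in 5 of 7 metal handling genes and in 0 of 6 Kupffer cell markers.

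**Figure D5:**
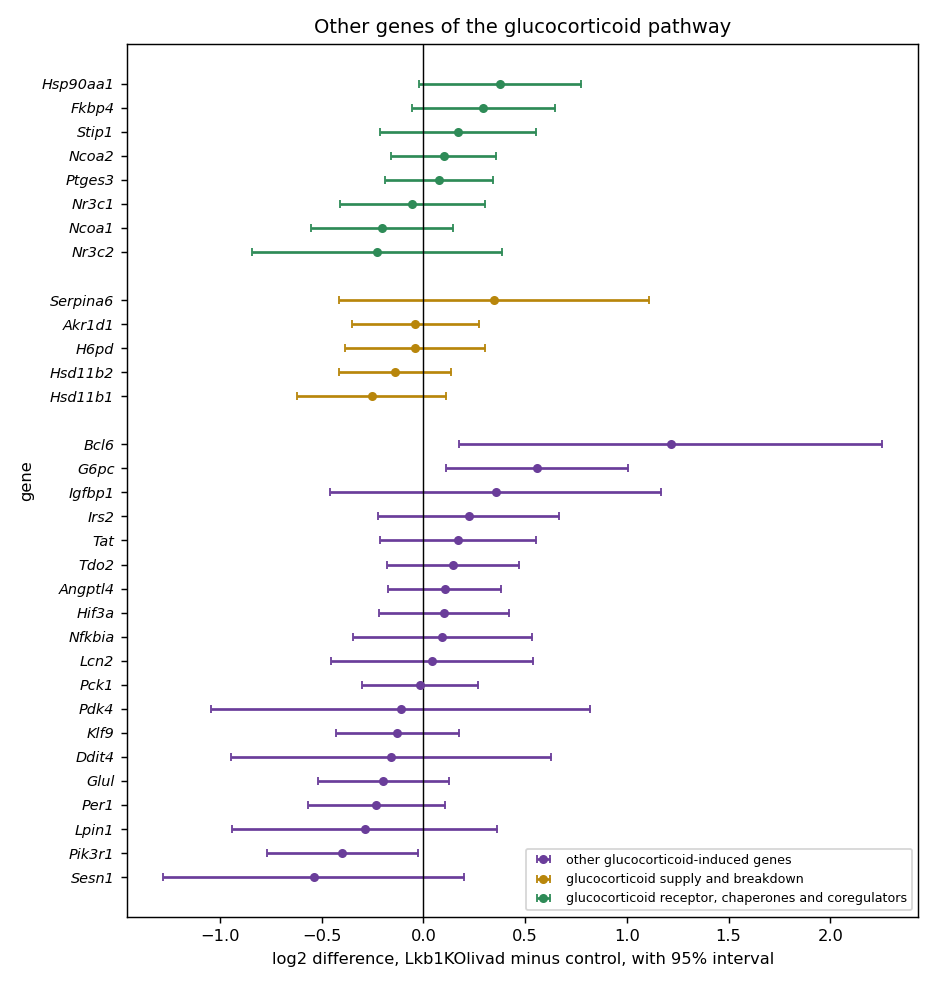
Log2 difference between Lkb1KOlivad and control livers, with 95% intervals from limma (n = 3 a group), for 8 receptor, chaperone and coregulator genes (green), 5 genes of hormone supply and breakdown (gold) and 19 other glucocorticoid-induced genes (purple). The interval excludes 0 for Bcl6, G6pc and Pik3r1, and most points lie near 0.

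Likeness of pattern was measured as the root mean square difference, over the 6 arrays, between log2 signals each centred on its own mean, so small values mean that a gene rises and falls with Tsc22d3 by the same amount. The closest of 19937 genes were Ints6 (0.0871), a subunit of the Integrator complex, Arrdc4 (0.131), an arrestin-domain protein, Prkd3 (0.132), a protein kinase D, Ube2d2b (0.135), a ubiquitin-conjugating enzyme, and Kdm6a (0.136), a histone demethylase. Centring on the mean of all arrays keeps the difference between groups on which Tsc22d3 was picked. These 5 genes had log2 differences of 0.41 to 0.72, beside 0.64 for Tsc22d3, so their likeness is no independent evidence. Ints6, for example, read 7.91 in mutant B253, 8.31 in B304 and 7.75 in B305, with controls B256, B267 and B302 at 7.58, 7.48 and 7.09. Of the 8 other members, Zbtb16 came nearest at 0.318, rank 2633, followed by Errfi1 at rank 3019, and Fkbp5 was among the least alike at rank 19724. When group means were removed first, the closest were 3110053B16Rik, Nudcd2, Eps15l1, Rsbn1 and Otop1, and Errfi1 was the nearest member at rank 1248. The measure also depends on how widely a gene varies. The ranks of Errfi1, which hardly varied, and of Fkbp5, which varied widely, therefore need not reflect the order of the mice. These ranks describe 6 arrays that share the same 3 mice a group.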

How the data were processed

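Liver RNA of 3 Lkb1KOlivad and 3 control mice was measured with 1 array per mouse. The deposited values are log2 signals, which the authors made with RMA per the labels; Partek is also on the labels, Expression Console and BRB-ArrayTools are in the methods, and their versions were not stated there. Of 35556 probe sets, 21789 had 1 gene symbol, 1621 several and 12146 none in an annotation of an earlier array generation than the methods name. Of the probe sets with 1 symbol, 21698 had a gene identifier found in RefSeq, which set the symbol used. The brightest probe set was kept for each of 999 genes with several, which left 19938 genes; each of the 9 members had 1. No intensity filter was applied and raw images were not used here.

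Groups were compared with limma 3.58.1 in R 4.3.3 (lmFit and eBayes, two-sided, no covariate) with Benjamini-Hochberg adjustment over all genes, and the code was tested on simulated data. An exact permutation test of 3 against 3 cannot go below 0.1 and was not used. The mice are separate animals per the labels. Gene places and promoter windows are from RefSeq, GRCm38.p6. The members, gene lists and tests were chosen with earlier results of these data known, and G6pc was entered under its older symbol once the values were at hand. Besides the members, named genes were Stk11, Nr3c1, Hsd11b1, Per1 and Klf9, up to 3 per list with the largest absolute difference, and the 5 most like Tsc22d3; Pik3r1, Alb, Fosb, Tsc22d2, Tsc22d4, Nkg7, Cd79a, single-mouse values outside the members and the order of the mice were described after their values were seen. Alternatives covered scaling, a filter on dim genes, probe set choice, variance model, array weights, the methods' t-test, mouse number series, and left-out mice. Plots were made with Python 3.11.15 and matplotlib 3.10.9.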

Additional observations from a re-analysis of the deposited data

How the results depend on the processing

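Tsc22d3, Zbtb16 and Errfi1 kept the sign of their difference under all 18 alternatives, while Cebpd and Dusp1 kept it in 17, Sgk1 and Mt2 in 16, Mt1 in 15 and Fkbp5 in 14. For Tsc22d3 no left-out mouse could change the sign, because every mutant lay above every control. The median of the 9 genes, -0.08, ran from -0.07 to 0.07 when each mouse was left out, above 0 without B253, B304, B256 or B302, and that of the 19 other induced genes from -0.07 to 0.13, below 0 without B267 or B302. Members among the 25% of genes with the largest spread numbered 4 to 7, against 5 with all mice. Over all genes, 1.52% were higher and 1.51% lower at an unadjusted p under 0.05 in limma. Leaving out dim genes, which tests fewer genes, gave 152 higher and 134 lower genes. The mouse number series as a block gave 589 higher, and without each mouse in turn the counts ran from 199 (without B304) to 521 (without B256) higher and from 189 (without B304) to 444 (without B302) lower. The cause was not tested. Stk11, the 1 gene lower at an adjusted p under 0.05, was lost (0 genes) with the methods' t-test, with B253 and B256 left out together, and when any mouse other than B302 was left out (0 to 1 genes). With B253 and B256 as a block, chosen after seeing the data, 2 genes were lower. No gene was higher at an adjusted p under 0.05 in any of these. The filter on dim genes, the probe set choice, the variance model, the t-test and the block of B253 with B256 leave a member's difference as it is by construction. No paired analysis was possible because nothing in the labels pairs a mutant with a control.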

Other observations

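Relatives of the 9 genes, 14 in all, had a median log2 difference of -0.02, and none passed an unadjusted p under 0.05 in limma. Cebpa, the C/EBP factor of mature hepatocytes, differed by -0.31 (interval -0.69 to 0.07), Tsc22d1 by -0.23 and the MAP kinase phosphatase Dusp6 by 0.24. Tsc22d1 was lower in all mutants than in all controls, as 3.7% of genes were, but its signal, 4.69 to 5.13, lay below the level of 5.26 under which genes were called dim. Tsc22d2 and Tsc22d4 differed by 0.10 and 0.11, with intervals that include 0.

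Metal handling genes were read beside the metallothioneins. Of 7, Mtf1, the metal-responsive transcription factor, was higher at an unadjusted p under 0.05 in limma but not after adjustment. It differed by 0.39 (interval 0.07 to 0.71), with all mutants above all controls. Over all genes, 1.52% were higher at that p and 3.46% had all mutants above all controls. Hmox1, heme oxygenase, differed by -0.31 and read 8.76 in control B256 against 6.85 and 6.92 in the other controls. The zinc transporter Slc39a14 differed by -0.29 and was likewise highest in B256, at 8.93.

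Markers of liver cell types other than hepatocytes were read as well. All 7 stellate cell markers were at or below 0, led by Lrat at -0.43. The list medians were -0.17 for sinusoidal endothelium, -0.20 for Kupffer cells, -0.16 for T and NK cells, 0.20 for neutrophils, -0.02 for B cells and 0.08 for cholangiocytes. At an unadjusted p under 0.05 in limma, Lrat and the T and NK cell gene Nkg7 (-0.54) were lower. The B cell gene Cd79a (0.42) was higher. Over all genes, 1.51% were lower and 1.52% higher at that p, and none of these markers passed an adjusted p under 0.05 in limma. Cd79a, at 3.44 to 4.28, and Nkg7, with group means of 4.68 and 5.23, lay below the level of 5.26 for dim genes. Nkg7 read 5.80 in control B267 against 4.91 and 4.97 in the other controls. The other B cell markers, Cd79b and Ms4a1, differed by -0.17 and -0.02.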
